A study of Mus musculus with 4 samples.

Results

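CD11b+ Gr1-low cells of the bone marrow of heterozygous GFP:Gfi1 KI/WT knock-in mice were sorted by their GFP signal, and the array of the GFP-high cells was compared with the array of the GFP-low cells. These are 2 of the 4 arrays of the series, with 1 array in each population, so every value below is a description of 2 arrays and no test was possible. The other arrays held Gr1-low cells of GFP:Gfi1 KI/KI mice, which lack Gfi1, and Gr1-high granulocytes of KI/WT mice, and they are given only as reference levels. All mice were 8 weeks old, untreated and on a C57BL/6 background after at least 10 generations of backcrossing, and all cells were CD11b+, the integrin chain of myeloid cells. In these mice GFP replaces Gfi1 coding sequence, so GFP reads the activity of the Gfi1 locus, and both populations carried a single functional Gfi1 allele. The sources used here do not give whether cells of several animals were pooled, and fewer cells of a type and less RNA per cell cannot be told apart in such bulk samples. Each of 12393 genes was read from 1 probe set, the one whose average across the arrays was greatest, and the difference was taken as log2 value in GFP-high minus log2 value in GFP-low cells.

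Gfi1 is a zinc-finger repressor that binds AATC-containing DNA and recruits histone-modifying enzymes. In the bone marrow it is needed for neutrophil development and holds back genes of the monocyte lineage. Neutrophil precursors fill primary granules with enzymes such as myeloperoxidase, while monocytes express the chemokine receptor Ccr2, the growth factor receptor Csf1r and the machinery for antigen presentation and nucleic acid sensing.

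The marker genes set the frame. Gfi1 itself read 10.31 in GFP-high, 3.74 in GFP-low, 5.18 in Gfi1-deficient cells and 7.31 in granulocytes, which is at least 35.1-fold higher in GFP-high than in GFP-low cells and at the floor of the scale in cells that lack it. Mpo, myeloperoxidase, read 13.66 in GFP-high, 8.08 in GFP-low, 11.42 in Gfi1-deficient cells and 9.36 in granulocytes. Ms4a3, a membrane protein of early granulocyte precursors, read 12.02 in GFP-high, 5.59 in GFP-low, 8.19 in Gfi1-deficient cells and 6.89 in granulocytes. Both granule-lineage genes were thus higher in GFP-high cells than on any other array. Ccr2 read 6.75 in GFP-high, 12.32 in GFP-low, 12.33 in Gfi1-deficient cells and 8.06 in granulocytes. S100a4, a calcium-binding protein of monocytes, read 7.06 in GFP-high, 13.17 in GFP-low, 13.18 in Gfi1-deficient cells and 8.41 in granulocytes, so GFP-low and Gfi1-deficient cells were alike for both monocyte genes and GFP-high cells were the lowest. In GFP-high cells 24 of 25 monocyte genes lay 2-fold or more below GFP-low cells, while 5 of 6 primary granule genes were higher, so the data go against the label monocyte for the GFP-high population, which is called GFP-high Gr1-low cells here. The GFP-low population expressed the monocyte genes. Ahnak, Ccl9, Cd74, Cx3cr1, F13a1, Fcgr1, Fn1, Irf8, Klf4, Ly86 and Vcan, described below by function, are on that monocyte list too. Itgb2l, Mmp9 and Padi4, also described below, are on the list of secondary and tertiary granule genes. In that list 10 of 15 measured genes were higher by 2-fold or more.

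A gene counted as measured when it was above the floor of 5.18, the 40th percentile of all values, on either array, which left 8232 genes. Values under the floor were set to it before a difference was taken, so a fold change against them is a lower bound, written "at least". Of the 8232 genes, 743 (9.03%) lay 2-fold or more above GFP-low cells in the GFP-high array and 791 (9.61%) lay as far below. At 4-fold, 204 (2.48%) were higher and 282 (3.43%) lower. The median difference of all measured genes was 0.03. The only error that could be taken was the disagreement between probe sets of a gene, with an SD of 0.32 over 3081 genes. It covers probe sets within these arrays, while the variation between arrays, between sorts and from mouse to mouse stays unknown. Several probe sets were above the floor for 606 of the genes past 2-fold, and in 596 of these they all lay on the same side.

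**Figure D1:**
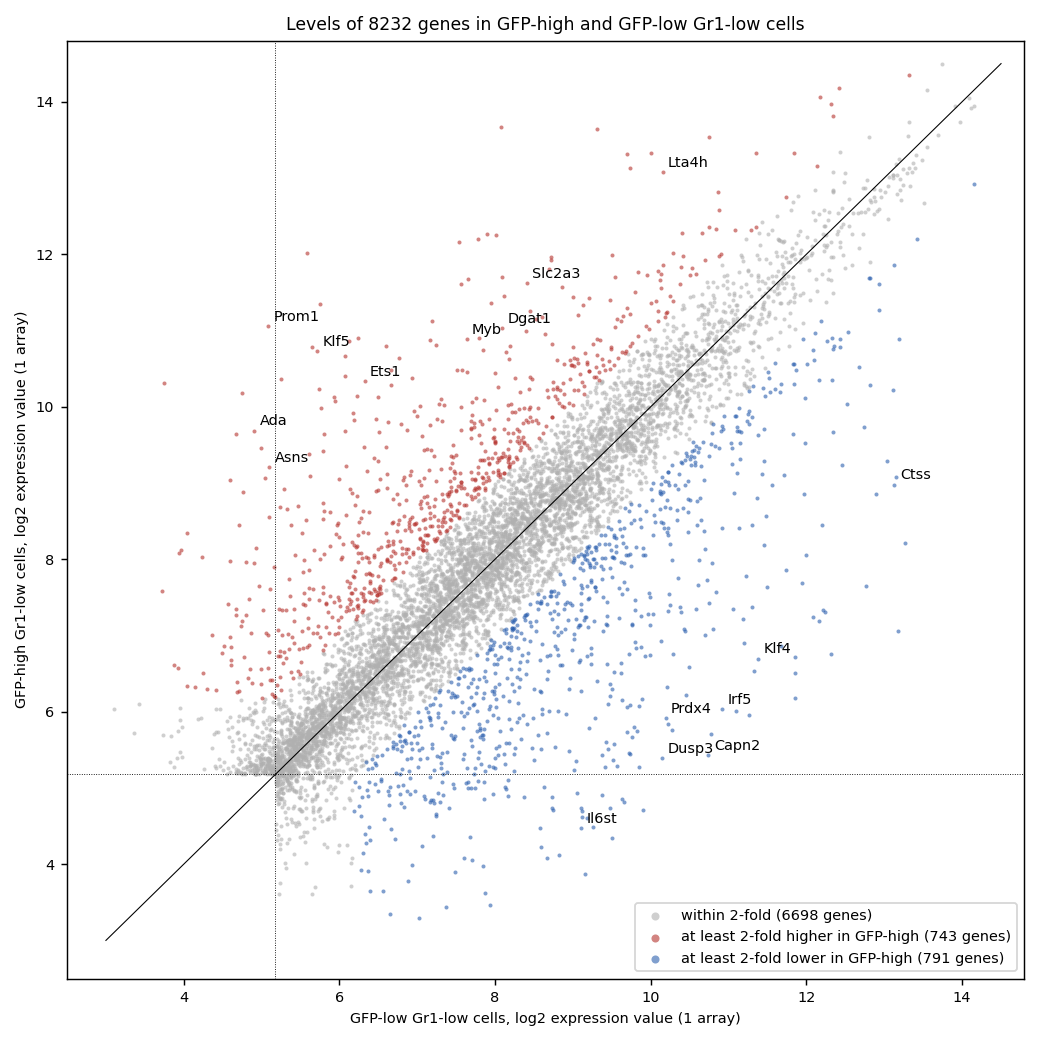
Log2 value of each of 8232 measured genes in GFP-low (x axis) and GFP-high (y axis) Gr1-low cells, 1 array each, with the dotted lines at the floor of 5.18 and the solid line at equality. Red points are the 743 genes at least 2-fold higher in GFP-high cells and blue points the 791 at least 2-fold lower, while 6698 grey points lie within 2-fold.

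Outside the granule, monocyte and cell cycle genes, the 15 highest differences ran from Prom1 down to Mapk13. Prom1, the progenitor surface protein CD133, read 11.06 in GFP-high, 5.08 in GFP-low, 4.24 in Gfi1-deficient cells and 9.52 in granulocytes, at least 58.9-fold above GFP-low cells. Orm1, an acute-phase plasma protein, was 35.3-fold higher at 10.79 against 5.65. Gca, the calcium-binding protein grancalcin, was 34.7-fold higher at 10.36 against 5.24. These 3 genes read higher in GFP-high cells than in granulocytes, and they were under the floor of 5.18 in Gfi1-deficient cells. Nkg7, a membrane protein of cytotoxic granules, was 48.2-fold higher, and Adgrg3, an adhesion G protein-coupled receptor, 26.8-fold. Lin28a, an RNA-binding protein that blocks let-7 microRNA maturation, was at least 22.1-fold higher at 9.65 against 4.67. As the mean over all probe sets of a gene above the floor, the log2 differences were 4.52 for Gca and 2.61 for Lin28a.

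The 15 lowest differences outside those lists ran from Ifi209 to H2-Aa. Ifi209, a member of the HIN-200 family of interferon-induced DNA-binding proteins, read 6.51 in GFP-high, 11.86 in GFP-low, 10.63 in Gfi1-deficient cells and 7.79 in granulocytes, 40.5-fold lower in GFP-high than in GFP-low cells. Mndal, of the same family, was 27.9-fold lower at 6.86 against 11.67. Capn2, the catalytic subunit of calpain-2, read 5.43 in GFP-high, 10.74 in GFP-low, 11.05 in Gfi1-deficient cells and 5.32 in granulocytes. Its 39.7-fold difference placed GFP-high cells beside granulocytes, with GFP-low beside Gfi1-deficient cells. Ptpro, a receptor-type tyrosine phosphatase, was 39.6-fold lower at 5.95 against 11.26. Trps1, a GATA-type zinc-finger repressor, was at least 26.4-fold lower.

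**Figure D2:**
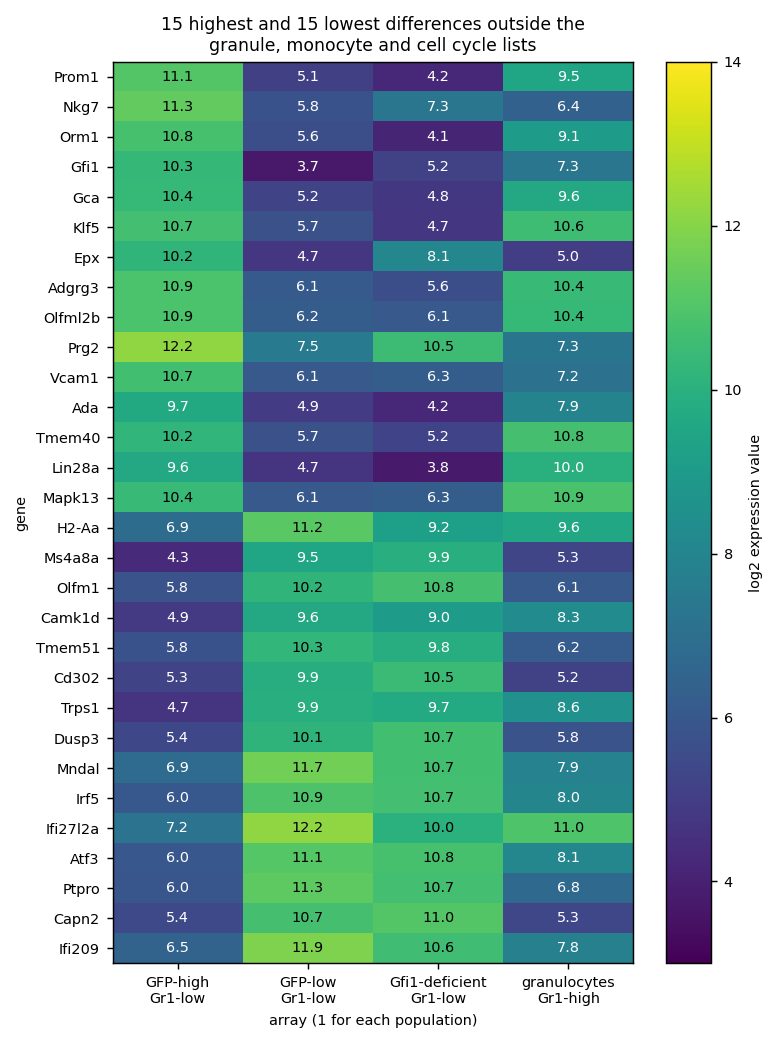
Log2 values on all 4 arrays (columns, 1 array each) of the 15 highest and 15 lowest differences among genes outside the granule, monocyte and cell cycle lists, with a colour scale of log2 expression values. GFP-high cells read lower than GFP-low cells in the lower rows, as for Capn2 (5.43 against 10.74), and higher in the upper rows, as for Klf5 (10.73 against 5.72).

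Markers of other cell types moved with some of these differences. Of 7 eosinophil markers, 6 were measured and 5 were higher by 2-fold or more in GFP-high cells, with a summed linear level of 7852 in GFP-high, 478 in GFP-low, 2318 in Gfi1-deficient cells and 488 in granulocytes. Epx, eosinophil peroxidase, was at least 32.0-fold higher at 10.18 against 4.75, and Prg2, the eosinophil major basic protein, 24.7-fold at 12.16 against 7.53. Il5ra, the eosinophil growth factor receptor, was under the floor on both arrays. Basophil and mast cell markers summed to 2741 in GFP-high, 860 in GFP-low cells and 5429 in granulocytes, with Ms4a2 and Tpsab1 under the floor on both. Only Hdc and Kit of 8 measured basophil and mast cell markers were higher (median 0.01), and the sum rests on Hdc, histidine decarboxylase, at 10.87 against 7.16, while the proteases Mcpt8 and Cpa3 lay within 2-fold. Macrophage markers summed to 5139 and 2547, with 5 of 13 higher, among them Vcam1 and the complement genes C1qa and C1qc, and 2 lower. Plasma cell markers summed to 4649 and 7750, with 3 of 7 measured at least 2-fold lower and none at least 2-fold higher. The defining B cell genes Pax5, Ebf1 and Ms4a1 and the T cell genes Cd3g and Cd8a were under the floor on both arrays, as were Pecam1 and Cdh5 of endothelium. Other members of these lists were above the floor on either array. They were 5 of 11 B cell, 4 of 9 T cell and 4 of 12 stroma and endothelium markers. Of these, 1 T cell marker was at least 2-fold higher in GFP-high cells and the others lay within 2-fold. Also measured were 10 of 11 erythroid, 6 of 9 megakaryocyte and platelet and 4 of 8 NK cell markers. Only 1 of these, an erythroid marker, was beyond 2-fold. The part of these cells in the differences below was not tested.

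Over 319 measured genes of 18 metabolic lists, 42 (13.2%) were higher by 2-fold or more in GFP-high cells and 39 (12.2%) lower, shares that lie a little above those of all genes. The lists differed from each other. In glucose use 4 of 18 glycolysis genes were higher and 2 lower, with a median difference of 0.72. Slc2a3, the high-affinity glucose transporter, read 11.62 in GFP-high, 8.41 in GFP-low, 7.35 in Gfi1-deficient cells and 13.07 in granulocytes, 9.26-fold higher in GFP-high than in GFP-low cells. Slc2a1, the widespread glucose transporter, ran the other way and was 2.31-fold lower. Pfkfb3, which makes the activator of phosphofructokinase, was 3.09-fold higher and lactate dehydrogenase Ldha 2.55-fold. The muscle enolase Eno3 was 4.47-fold lower at 5.44 against 7.60, while hexokinase Hk2 lay at 10.03 against 10.13. Averaged over probe sets, the log2 difference was 2.29 for Slc2a3.

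Of the glycogen genes, 4 of 10 were higher and none at least 2-fold lower (median 0.61). Glycogen synthase Gys1 read 9.95 in GFP-high, 6.96 in GFP-low, 6.97 in Gfi1-deficient cells and 9.23 in granulocytes, a 7.93-fold difference. The branching enzyme Gbe1 was 7.63-fold higher at 8.51 against 5.58, and liver glycogen phosphorylase Pygl 2.02-fold at 12.36 against 11.35, so genes of storage and of release were both higher, although the Pygl difference was 0.98 after quantile normalization, just under 2-fold. GFP-low and Gfi1-deficient cells were alike for Gys1 and Gbe1, and granulocytes lay near GFP-high cells. In the pentose phosphate pathway, which supplies NADPH and ribose, all 6 measured genes lay above 0 and 2 were at least 2-fold higher: Rpia by 2.85-fold and Rpe by 2.72-fold, the ribose-phosphate isomerase and epimerase (median 0.79).

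Of 63 genes of the respiratory chain, 62 lay within 2-fold (median 0.09), so that 1.59% were beyond it, against 18.6% of all genes, the exception being the complex I subunit Ndufv3 at 11.98 against 10.42. The tricarboxylic acid cycle had 23 of 25 genes within 2-fold. Its 2 lower genes, Idh1 (9.68 against 11.11) and Aco1 (7.28 against 8.81), encode the cytosolic isocitrate dehydrogenase and the cytosolic aconitase that doubles as an iron regulatory protein. Fatty acid oxidation had 1 of 19 genes higher and 2 lower, a share of 15.8% that lies near that of all genes, with Cpt1a, which carries fatty acids into mitochondria, 2.14-fold lower at 9.49 against 10.59.

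Lipid storage and efflux had the largest share of lower genes among the metabolic lists, with 9 of 18 lower and 3 higher (median -1.29). Lpl, lipoprotein lipase, read 7.42 in GFP-high, 10.75 in GFP-low, 9.12 in Gfi1-deficient cells and 6.89 in granulocytes, 10.1-fold lower in GFP-high than in GFP-low cells. Fabp5, a fatty acid carrier, was 10.1-fold lower at 7.09 against 10.43. Apoe, the lipoprotein component, was 6.60-fold lower at 8.41 against 11.13, and Npc2, which moves cholesterol out of lysosomes, 4.44-fold at 10.52 against 12.67. Both enzymes of the last step of triglyceride synthesis lay opposite. Dgat1 read 11.03 in GFP-high, 8.09 in GFP-low, 7.88 in Gfi1-deficient cells and 11.82 in granulocytes, 7.66-fold higher, and Dgat2 read 10.03 in GFP-high, 7.35 in GFP-low, 7.50 in Gfi1-deficient cells and 10.57 in granulocytes, 6.42-fold higher. GFP-high cells and granulocytes thus lay together for both, more than 2 log2 units above the other arrays. In cholesterol synthesis 4 of 19 genes were higher and none was at least 2-fold lower (median 0.15). Their share of 21.1% lies near the 18.6% of all genes. Farnesyl diphosphate synthase Fdps was 2.39-fold higher at 9.14 against 7.88.

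Iron handling had 2 of 13 genes higher and 5 lower (median -0.99), and heme synthesis 1 of 11 higher. Alas1, the first enzyme of heme synthesis, read 11.15 in GFP-high, 8.53 in GFP-low, 8.79 in Gfi1-deficient cells and 10.01 in granulocytes, 6.16-fold higher in GFP-high than in GFP-low cells, while the other 10 heme synthesis genes lay within 2-fold. Tfrc, the transferrin receptor that imports iron, was 4.03-fold higher at 9.73 against 7.72. Slc40a1, the iron exporter ferroportin, was 14.6-fold higher and read 10.64 in GFP-high, 6.77 in GFP-low, 5.83 in Gfi1-deficient cells and 11.43 in granulocytes. On the other side were Slc11a1, the phagosomal metal transporter (6.63 against 9.44), the ferritin heavy chain Fth1 (2.16-fold lower at 11.69 against 12.80, with a difference of -0.93 as the mean over its probe sets) and heme oxygenase Hmox1 (2.91-fold lower). Slc40a1 and Hmox1 are also on the macrophage marker list given above, and Tfrc is the single one of 10 measured erythroid markers that was beyond 2-fold. With all probe sets averaged, the log2 difference was 1.07 for Tfrc.

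Nucleotide synthesis had 8 of 21 genes higher and 1 lower (median 0.45). Dtymk, which makes dTDP, was 4.17-fold higher at 9.79 against 7.73, the dUTPase Dut 4.04-fold at 9.71 against 7.70 and the ribonucleotide reductase subunit Rrm2 3.80-fold at 11.77 against 9.84. Gfi1-deficient cells lay between GFP-high and GFP-low cells for these 3 genes, and granulocytes were the lowest. Nme2, a nucleoside diphosphate kinase, was 2.74-fold lower. Ada, adenosine deaminase, read 9.69 in GFP-high, 4.91 in GFP-low, 4.21 in Gfi1-deficient cells and 7.91 in granulocytes, at least 22.8-fold higher in GFP-high cells.

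Of 8 serine and one-carbon genes 1 was higher and none at least 2-fold lower (median 0.71, or 0.32 with the probe set of the smallest difference). The arginine, polyamine and creatine list had 2 of 11 genes higher and 3 lower, and the amino acid transport list 2 of 13 higher and 3 lower. Asns, asparagine synthetase, read 9.20 in GFP-high, 5.10 in GFP-low, 5.07 in Gfi1-deficient cells and 8.32 in granulocytes, at least 16.3-fold higher in GFP-high than in GFP-low cells. Gatm, which makes the creatine precursor guanidinoacetate, read 10.14 in GFP-high, 6.22 in GFP-low, 7.58 in Gfi1-deficient cells and 6.34 in granulocytes, a 15.1-fold difference in which GFP-high cells were the highest of the 4. Phgdh, the first enzyme of serine synthesis, was 2.37-fold higher at 9.07 against 7.83. Brain creatine kinase Ckb was 4.08-fold lower, and glutamine synthetase Glul 2.71-fold lower at 8.92 against 10.36.

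Oxidant defence had 3 of 27 genes higher and 7 lower (median -0.29). Prdx4, the secretory-pathway peroxiredoxin, read 5.92 in GFP-high, 10.19 in GFP-low, 10.40 in Gfi1-deficient cells and 5.85 in granulocytes. It was 19.4-fold lower in GFP-high than in GFP-low cells, with granulocytes beside GFP-high cells. Superoxide dismutase Sod1 was 3.51-fold lower at 10.35 against 12.17 and Prdx2 3.26-fold at 8.32 against 10.03. Mgst2, a microsomal glutathione transferase, was 15.4-fold higher at 11.13 against 7.19. The eicosanoid genes, which make and break lipid mediators, had 3 of 15 higher and 4 lower. Lta4h, the leukotriene A4 hydrolase that makes LTB4, read 13.07 in GFP-high, 10.15 in GFP-low, 10.15 in Gfi1-deficient cells and 11.92 in granulocytes and was 7.57-fold higher. The LTB4 receptor Ltb4r1 was 2.71-fold higher at 11.56 against 10.13. Alox15, a lipoxygenase that is also an eosinophil marker, was 6.95-fold higher at 10.10 against 7.30, and its eosinophil companions are given above. Hpgd, which inactivates prostaglandins, was 14.9-fold lower at 6.32 against 10.21. The platelet-activating factor hydrolase Pla2g7 was 8.11-fold lower, and cyclooxygenase-2, Ptgs2, at least 6.07-fold. Probe sets disagreed here, and on their mean the log2 differences were -2.72 for Prdx4, -2.12 for Hpgd and -1.95 for Ptgs2.

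Genes of protein synthesis and folding hardly differed in RNA level. Of 148 genes in 4 lists, 3 (2.03%) were at least 2-fold higher and 2 (1.35%) lower. All 18 measured cytosolic tRNA synthetases and all 36 genes of folding and transport in the endoplasmic reticulum lay within 2-fold, as did 59 of 63 genes of the mitochondrial ribosome and 30 of 31 of ribosome biogenesis. The lysosome list was one-sided, with 10 of 36 genes lower and 1 higher (median -0.36). Ctss, the cathepsin that processes invariant chain, read 8.98 in GFP-high, 13.13 in GFP-low, 13.01 in Gfi1-deficient cells and 10.40 in granulocytes, 17.8-fold lower in GFP-high than in GFP-low cells. Ctsa was 5.93-fold lower at 8.80 against 11.37, prosaposin Psap 4.92-fold at 10.89 against 13.19 and the asparaginyl endopeptidase Lgmn 4.42-fold at 6.54 against 8.68. The sialidase Neu1 was 2.40-fold higher at 9.34 against 8.07, with a difference of 0.88 as the mean over its probe sets.

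**Figure D3:**
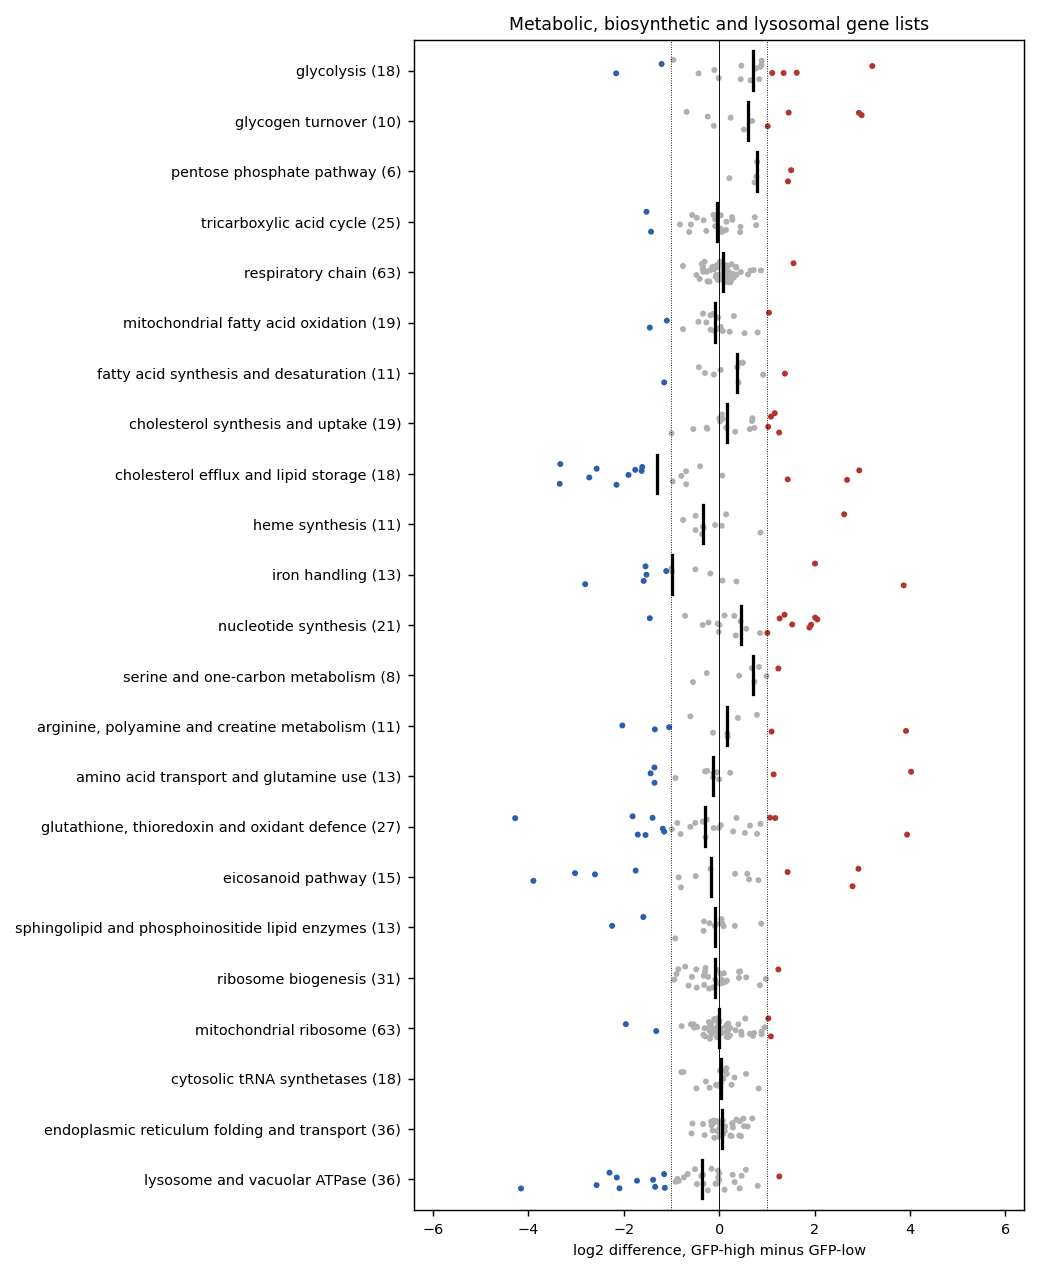
Log2 difference between GFP-high and GFP-low cells (x axis) for each measured gene (point) of the metabolic, biosynthetic and lysosomal lists, with the number of genes in brackets, the list median as a black bar, and dotted lines at 2-fold. Respiratory chain genes crowd around a median of 0.09, while lipid storage genes have their median at -1.29.

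Adhesion genes moved in both directions, with 18 of 108 (16.7%) higher and 26 (24.1%) lower. Of 15 measured integrins 2 were higher and 3 lower, so members of the family lay on opposite sides. Itgb2l, a beta chain close to the beta-2 integrin, read 12.19 in GFP-high, 7.78 in GFP-low, 5.58 in Gfi1-deficient cells and 12.56 in granulocytes, 21.3-fold higher in GFP-high than in GFP-low cells. Itga6, of the laminin receptors, was 4.61-fold higher at 9.11 against 6.90. Itgb7, which pairs with alpha-4 in mucosal homing, read 7.35 in GFP-high, 11.05 in GFP-low, 10.99 in Gfi1-deficient cells and 8.35 in granulocytes, with a difference of -3.70. Its partner Itga4 was 3.07-fold lower at 5.58 against 7.19, and the fibronectin receptor chain Itga5 2.72-fold at 6.33 against 7.77. The chain of the sort, CD11b (Itgam), lay within 2-fold at 11.06 against 10.28.

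Of 21 genes of integrin activation and focal contact, 3 were higher and 1 lower, a share of 19.0% beside 18.6% of all genes. Actn1, the actin cross-linker alpha-actinin-1, read 10.79 in GFP-high, 6.60 in GFP-low, 5.51 in Gfi1-deficient cells and 11.83 in granulocytes, a 18.3-fold difference with GFP-high cells closer to granulocytes than to GFP-low cells. Parvg, the leukocyte parvin that links integrins to actin, was 4.28-fold higher at 10.83 against 8.73. The adaptor Fyb was 2.84-fold lower. Selectin ligand genes had 3 of 15 higher and 4 lower: Chst15, a chondroitin sulfotransferase, was 6.56-fold higher at 8.87 against 6.16, and the ligand itself, Selplg (PSGL-1), 3.35-fold lower at 9.71 against 11.46. On the mean of the probe sets, the log2 difference was 3.56 for Actn1.

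Among immunoglobulin-type adhesion molecules 5 of 16 were higher and 3 lower. Vcam1, the ligand of alpha-4 integrins, read 10.66 in GFP-high, 6.07 in GFP-low, 6.26 in Gfi1-deficient cells and 7.17 in granulocytes, 24.1-fold higher and above every other array, and it is one of the macrophage markers given above. Ncam1, the neural cell adhesion molecule, was 10.9-fold higher at 10.38 against 6.93. Icam1, the ligand of beta-2 integrins, was 5.69-fold lower at 5.31 against 7.82, and L1cam 4.61-fold lower. Tetraspanins, which organise membrane domains, had 4 of 17 higher and 5 lower. Cd81 was 14.1-fold higher at 10.48 against 6.66 and Cd9 10.7-fold at 11.37 against 7.95, while Tspan13 was 9.22-fold lower at 6.30 against 9.50. As the mean over all probe sets of a gene above the floor, the log2 differences were 3.62 for Vcam1 and 2.27 for Ncam1.

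Of 25 matrix genes 10 were lower and 2 higher (median -0.55, or -0.14 with the floor at the 20th percentile). Fn1, fibronectin, read 8.21 in GFP-high, 13.27 in GFP-low, 13.22 in Gfi1-deficient cells and 8.75 in granulocytes, 33.4-fold lower in GFP-high than in GFP-low cells. F13a1, the factor XIII transglutaminase chain, was 16.8-fold lower at 9.08 against 13.15. Vcan, the proteoglycan versican, was under the floor in GFP-high cells and at least 11.3-fold lower. All 3 also belong to the monocyte list. Mmp9, gelatinase B of tertiary granules, was 6.96-fold higher at 11.25 against 8.45, and Adam8 4.13-fold.

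The actin and membrane remodelling list had 15 of 43 genes lower and 7 higher (median -0.35). Besides Capn2, given above, the scaffold Ahnak read 7.31 in GFP-high, 12.24 in GFP-low, 11.96 in Gfi1-deficient cells and 8.01 in granulocytes and was 30.6-fold lower. Cd2ap, an adaptor between receptors and actin, was at least 16.0-fold lower. Annexins split, with Anxa4 9.44-fold lower at 5.53 against 8.77 and Anxa3 5.58-fold higher at 11.98 against 9.50. Marcksl1, an actin-linked substrate of protein kinase C, was 6.01-fold higher. Averaged over probe sets, the log2 differences were -2.12 for Ahnak, -2.36 for Cd2ap and 1.91 for Marcksl1.

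Surface receptors lay apart more often than all genes, with 37 of 182 (20.3%) higher and 64 (35.2%) lower. Chemoattractant receptors had 6 of 18 higher and 5 lower. Gpr84, a receptor for medium-chain fatty acids, read 9.42 in GFP-high, 5.79 in GFP-low, 5.54 in Gfi1-deficient cells and 8.58 in granulocytes, 12.4-fold higher in GFP-high than in GFP-low cells. Cxcr2, the neutrophil chemokine receptor, read 8.79 in GFP-high, 6.68 in GFP-low, 6.04 in Gfi1-deficient cells and 12.40 in granulocytes, so GFP-high cells lay between GFP-low cells and granulocytes. C5ar1, the complement C5a receptor, was 3.29-fold higher at 8.01 against 6.29, and Fpr2, a formyl peptide receptor, 3.06-fold at 12.28 against 10.66. Cx3cr1, the fractalkine receptor of monocytes, was 33.6-fold lower at 5.71 against 10.78, and Gpr35 at least 17.0-fold. With all probe sets averaged, the log2 difference was -4.06 for Cx3cr1.

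Growth factor receptors had 3 of 20 higher and 4 lower. Kit, the stem cell factor receptor and one of the basophil and mast cell markers given above, read 8.11 in GFP-high, 3.96 in GFP-low, 4.42 in Gfi1-deficient cells and 6.51 in granulocytes, at least 7.66-fold higher in GFP-high cells. Igf1r, the insulin-like growth factor receptor, was 5.36-fold higher at 8.89 against 6.47, and Igf2r, which also sorts lysosomal enzymes, at least 9.62-fold. The interleukin-6 family lay opposite. Il6st, its shared chain gp130, was under the floor in GFP-high cells at 4.47 against 9.11, at least 15.2-fold lower. Il6ra was 7.44-fold lower at 7.33 against 10.22, and Lifr at least 4.58-fold, so the shared chain and 2 of its partners were lower together. Of 23 interleukin and interferon receptors, 3 were higher and 9 lower. Il10ra and Il13ra1 were at least 12.5-fold and 15.2-fold lower. Both chains of the interleukin-18 receptor were higher, Il18rap by 10.9-fold at 8.69 against 5.24 and Il18r1 by at least 4.45-fold. The decoy receptor Il1r2 was 8.94-fold higher at 9.47 against 6.31. Probe sets disagreed here, and on their mean the log2 differences were 2.27 for Kit, -2.20 for Il6st, -2.12 for Il6ra, -1.05 for Lifr and -1.94 for Il10ra.

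In the TNF family 3 of 17 genes were higher and 3 lower: Tnfsf13b, the B cell factor BAFF, was 5.98-fold higher at 9.84 against 7.26, and the receptor Tnfrsf1b 5.88-fold lower at 8.14 against 10.69. Toll-like and NOD-like receptors with their adaptors were mostly on the GFP-low side, with 13 of 23 lower and 1 higher (median -1.38). Tlr2, the lipopeptide receptor, read 7.30 in GFP-high, 10.38 in GFP-low, 10.36 in Gfi1-deficient cells and 10.62 in granulocytes. It was 8.46-fold lower in GFP-high than in GFP-low cells, and granulocytes were beside GFP-low cells. Nlrp3, the inflammasome sensor, was 8.64-fold lower at 6.50 against 9.61, and Ly86, the partner of the Toll-like protein RP105, 28.5-fold at 7.25 against 12.08. The endosomal RNA sensors are also in this list: Tlr7 lay at 6.65 against 9.08 and Tlr8 at 5.77 against 8.21. Probe sets of Tlr7 disagreed, with a mean log2 difference of -1.43. Tlr4, the receptor of lipopolysaccharide, lay within 2-fold at 7.48 against 6.87, and its co-receptor Ly96 was at least 6.39-fold lower.

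C-type lectins and sialic acid-binding receptors had 8 of 23 higher and 8 lower. Clec7a, the beta-glucan receptor dectin-1, read 8.45 in GFP-high, 12.19 in GFP-low, 11.99 in Gfi1-deficient cells and 12.04 in granulocytes, 13.4-fold lower in GFP-high cells and alike on the other 3 arrays. Cd302 was 24.0-fold lower at 5.27 against 9.85. Ly75 (DEC-205) and Mgl2, endocytic lectins usually studied on dendritic cells, were at least 8.94-fold and 10.4-fold higher, although summed dendritic cell markers were 402 in GFP-high and 1040 in GFP-low cells. Siglecf, an eosinophil marker, was at least 7.81-fold higher. Fc and paired receptors had 7 of 23 on each side. Trem3 was 9.19-fold higher at 11.92 against 8.72 and Trem1, an amplifier of inflammation, 3.87-fold, while Fcgr1, the high-affinity IgG receptor, was 17.6-fold lower at 5.37 against 9.51. Scavenger and phagocytic receptors had 10 of 24 lower and 3 higher. Lrp1 was 13.7-fold lower at 6.08 against 9.85 and Msr1 lay at 6.00 against 8.81. The 3 higher ones were C1qa, C1qb and C1qc, subunits of the complement component C1q, which are macrophage markers. P2ry6, the UDP receptor, was at least 19.6-fold lower.

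**Figure D4:**
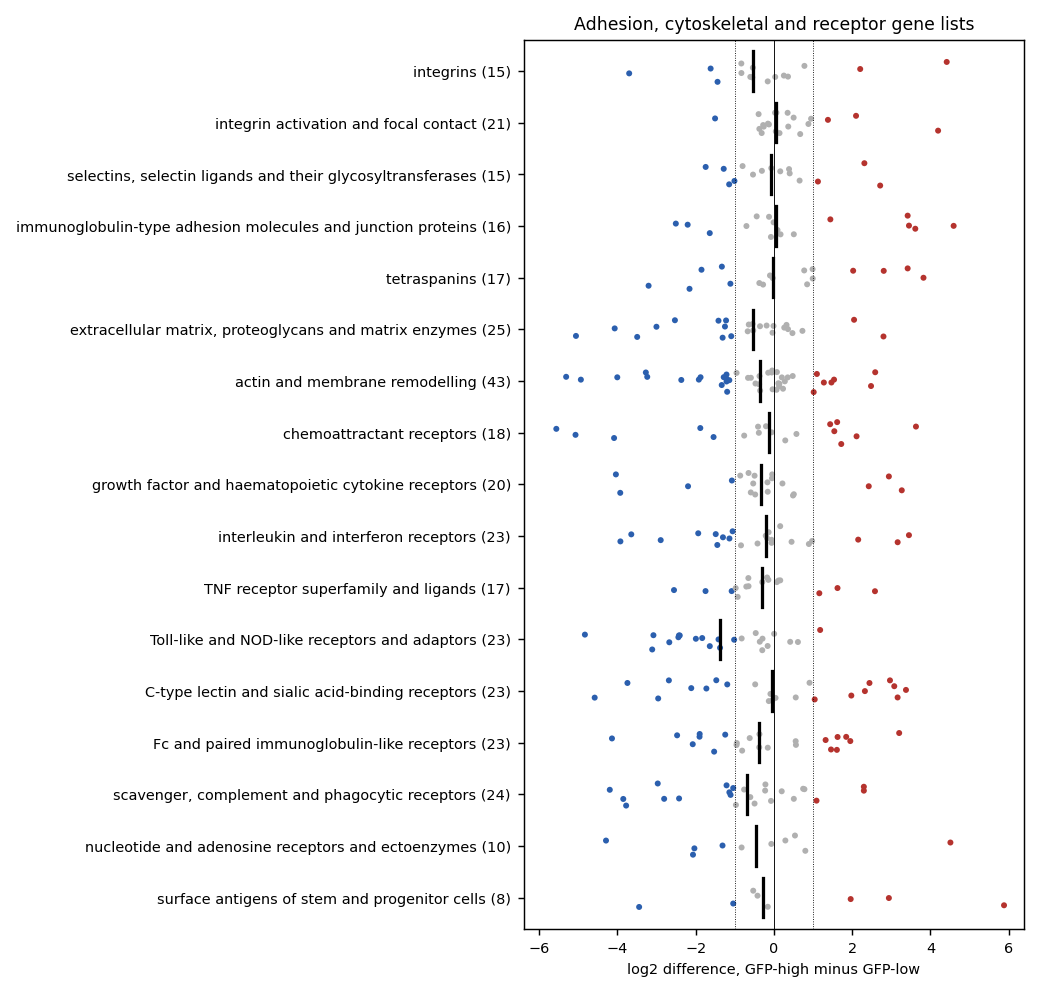
Log2 difference between GFP-high and GFP-low cells (x axis) for each measured gene (point) of the adhesion, cytoskeleton and receptor lists, with the number of genes in brackets, the list median as a black bar, and dotted lines at 2-fold. Toll-like and NOD-like receptors have a median of -1.38, while the C-type lectins spread to both sides, with 8 of 23 genes beyond each dotted line.

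Signalling genes had 23 of 311 (7.40%) higher and 66 (21.2%) lower. In the MAP kinase list 3 of 37 were higher and 11 lower. Mapk13, the p38-delta kinase, read 10.41 in GFP-high, 6.08 in GFP-low, 6.25 in Gfi1-deficient cells and 10.86 in granulocytes, 20.1-fold higher in GFP-high than in GFP-low cells and like granulocytes. Dusp3, a dual-specificity phosphatase of MAP kinases, read 5.39 in GFP-high, 10.15 in GFP-low, 10.67 in Gfi1-deficient cells and 5.81 in granulocytes, 27.1-fold lower. The small GTPase Rras was 19.5-fold lower at 5.45 against 9.74. Dusp1, which dephosphorylates p38 and JNK, was 3.16-fold lower at 11.27 against 12.93. In the JAK and STAT list 1 of 23 was higher and 5 lower: Stat4, which acts below interleukin-12 and interferon receptors, was 6.05-fold higher at 8.83 against 6.23, and Stat2, which acts below type I interferon receptors, 2.97-fold lower at 6.00 against 7.57. On the mean of the probe sets, the log2 difference was -2.93 for Dusp3.

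Of the tyrosine kinase genes, 1 of 36 was higher and 5 lower, a share of 16.7% beside 18.6% of all genes. The Src kinase Fyn was 4.60-fold lower at 5.64 against 7.85 and the adaptor Lat2 7.03-fold at 5.31 against 8.12. In the PI3-kinase list 6 of 25 were lower and none was at least 2-fold higher. Ddit4, an inhibitor of mTORC1, was 7.78-fold lower at 5.52 against 8.48, and Deptor, another mTOR inhibitor, 3.30-fold at 6.89 against 8.61. The 3 probe sets of Deptor ran from -2.68 to -0.08. Lower too were the transcription factor Foxo1, 2.53-fold at 5.93 against 7.27, and the kinase Sgk3, 2.31-fold at 9.41 against 10.61. For Sgk3 the difference was -0.93 as the mean over its probe sets.

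G protein and cyclic AMP genes were balanced, with 7 of 41 on each side. Pde2a, a cyclic nucleotide phosphodiesterase, was 4.94-fold higher at 10.95 against 8.64, and Arrb2, beta-arrestin 2, 4.46-fold at 11.70 against 9.54. Grk5, a receptor kinase, read 5.28 in GFP-high, 9.41 in GFP-low, 9.76 in Gfi1-deficient cells and 8.34 in granulocytes and was 17.5-fold lower. Rgs10, which ends G protein signals, was 9.39-fold lower at 7.35 against 10.58. The arrestin and the kinase, which act in succession on the same receptors, thus lay on opposite sides. Calcium and calmodulin genes had 6 of 30 higher and 9 lower, with protein kinase D2, Prkd2, 5.67-fold higher at 8.71 against 6.21 and Camk1d at least 21.8-fold lower. As the mean over all probe sets of a gene above the floor, the log2 difference was 1.70 for Prkd2.

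Cell death regulators had 8 of 29 lower and none at least 2-fold higher. Pmaip1 (Noxa), a killer of the BCL-2 family, was at least 11.8-fold lower, Casp6 7.29-fold lower at 5.69 against 8.55 and Cdkn1a, the inhibitor p21, 4.95-fold at 7.14 against 9.44. Survival genes of the list were lower too, with Pim1 3.21-fold lower at 8.65 against 10.33 and Mcl1 2.40-fold at 10.56 against 11.82. The Mcl1 difference was -0.71 after quantile normalization, under 2-fold. In the NF-kappaB list 1 of 23 was higher and 5 lower, among them the subunit Relb at 5.22 against 6.89. TGF-beta, BMP, Wnt and Notch genes had 2 of 34 higher and 5 lower, with Tgif1, a repressor of TGF-beta targets, 5.66-fold lower. Their share beyond 2-fold was 20.6%, near the 18.6% of all genes. Averaged over probe sets, the log2 difference was -1.67 for Cdkn1a.

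Transcription factors had 25 of 207 (12.1%) higher and 37 (17.9%) lower, and several families held a member at each end. Among KLF factors, Klf5 read 10.73 in GFP-high, 5.72 in GFP-low, 4.73 in Gfi1-deficient cells and 10.57 in granulocytes, 32.2-fold higher in GFP-high than in GFP-low cells. Klf4, which promotes the monocyte lineage, read 6.70 in GFP-high, 11.38 in GFP-low, 11.36 in Gfi1-deficient cells and 7.28 in granulocytes, 25.6-fold lower. The pair thus ran in opposite directions, with GFP-high cells like granulocytes for both. Cebpa was 3.33-fold lower at 8.77 against 10.51 and Cebpb 2.69-fold lower at 10.90 against 12.33. With all probe sets averaged, the log2 difference was 3.11 for Klf5.

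Ets1 read 10.34 in GFP-high, 6.32 in GFP-low, 4.32 in Gfi1-deficient cells and 10.10 in granulocytes, a 16.1-fold difference, and was under the floor in Gfi1-deficient cells. In the same list several interferon regulatory factors lay on the other side. Irf5, which acts below Toll-like receptors, read 6.03 in GFP-high, 10.91 in GFP-low, 10.71 in Gfi1-deficient cells and 8.00 in granulocytes and was 29.4-fold lower. Irf8, needed for monocytes, was 13.1-fold lower at 7.09 against 10.80, and Irf7, the amplifier of type I interferon, 7.37-fold at 6.92 against 9.80. In all, 3 of 28 genes of the ETS, RUNX and IRF list were higher and 8 lower. Probe sets disagreed here, and on their mean the log2 differences were 2.53 for Ets1 and -2.53 for Irf5.

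AP-1 and ATF factors had 1 of 31 higher and 9 lower. Atf3 read 6.00 in GFP-high, 11.09 in GFP-low, 10.81 in Gfi1-deficient cells and 8.07 in granulocytes, 34.0-fold lower in GFP-high cells, and Junb was 5.67-fold lower at 8.41 against 10.91. Jdp2, a repressor of AP-1, was the single higher gene, 5.40-fold at 9.99 against 7.56. Atf3, Junb and Dusp1 are immediate-early genes, switched on within minutes of a stimulus. Egr1, another such gene, was 3.18-fold higher at 9.93 against 8.25.

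Progenitor factors had 5 of 27 higher and none at least 2-fold lower, a share of 18.5% beside 18.6% of all genes. Gfi1, whose locus the GFP of the sort reads, is among the 5. Myb, needed for progenitor proliferation, read 10.88 in GFP-high, 7.63 in GFP-low, 7.86 in Gfi1-deficient cells and 9.19 in granulocytes, 9.52-fold higher in GFP-high than in GFP-low cells. Satb1, a chromatin organiser, was 4.42-fold higher at 9.36 against 7.22. A separate list of EGR, ID, E-protein and other helix-loop-helix factors had 6 of 36 higher and 5 lower (median -0.15). In that list Mxd1, which opposes Myc, was 4.74-fold higher at 7.85 against 5.61, and Ahr, the aryl hydrocarbon receptor, 6.24-fold lower at 5.22 against 7.87. Myc itself was 2.51-fold higher at 7.04 against 5.71.

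Nuclear receptors had 5 of 21 lower and 1 higher. Nr4a1, needed for Ly6C-low monocytes, was 5.95-fold lower at 8.98 against 11.55, and Rara, the retinoic acid receptor, 4.86-fold at 5.90 against 8.18. The single higher gene was Ncoa4 (4.67-fold at 11.43 against 9.20), a coactivator that also carries ferritin to lysosomes. Of 48 chromatin enzymes 7 were higher and 3 lower, a share of 20.8% that lies near the 18.6% of all genes. Cell cycle genes, given with nucleotide synthesis, were mostly higher, and their part here was not tested. Uhrf1, which guides maintenance methylation, was 4.66-fold higher at 10.08 against 7.86, the H3K27 methyltransferase Ezh2 2.31-fold at 10.22 against 9.01 and Dnmt1 2.05-fold at 10.71 against 9.67. Gfi1-deficient cells lay between GFP-high and GFP-low cells for these 3 genes, and granulocytes were the lowest. The peptidylarginine deiminases were split, with Padi4 3.28-fold higher at 9.93 against 8.22 and Padi2 15.4-fold lower at 5.58 against 9.53.

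Immune effector genes had 11 of 102 (10.8%) higher and 51 (50.0%) lower. Of 21 antigen presentation genes, 10 were lower and none was at least 2-fold higher (median -0.93). The MHC class II chain H2-Aa read 6.90 in GFP-high, 11.20 in GFP-low, 9.22 in Gfi1-deficient cells and 9.61 in granulocytes, 19.6-fold lower in GFP-high than in GFP-low cells. The invariant chain Cd74 was 15.1-fold lower at 7.38 against 11.30, and H2-DMa, which loads peptides, 10.4-fold at 7.06 against 10.44. The class I light chain B2m lay within 2-fold at 13.13 against 13.39. For H2-Aa and Cd74 the Gfi1-deficient cells lay between GFP-low and GFP-high cells.

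Interferon-induced genes had 30 of 39 members at least 2-fold lower and 1 higher, with a median of -1.82, the largest share of lower members among the 60 lists described. Oasl2, of the oligoadenylate synthetase family, read 5.51 in GFP-high, 9.45 in GFP-low, 4.91 in Gfi1-deficient cells and 9.66 in granulocytes, 15.3-fold lower in GFP-high than in GFP-low cells. Usp18, which removes ISG15 from proteins, read 5.23 in GFP-high, 9.01 in GFP-low, 6.08 in Gfi1-deficient cells and 8.41 in granulocytes. Ifit3, of the interferon-induced tetratricopeptide family, read 5.91 in GFP-high, 9.28 in GFP-low, 5.86 in Gfi1-deficient cells and 8.90 in granulocytes. For these 3 genes the Gfi1-deficient cells were low as well, within 1 log2 unit of GFP-high cells, whereas granulocytes were high. Gbp3, a guanylate-binding protein, read 5.51 in GFP-high, 8.59 in GFP-low, 8.58 in Gfi1-deficient cells and 6.23 in granulocytes, and here Gfi1-deficient cells were like GFP-low cells. Zbp1, a sensor of Z-form nucleic acid, was 7.68-fold lower at 5.97 against 8.91. Slfn4, of the Schlafen family, was the single higher gene and read 10.78 in GFP-high, 9.00 in GFP-low, 7.61 in Gfi1-deficient cells and 12.52 in granulocytes.

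Interferon-induced genes share a promoter element, the interferon-stimulated response element, which is bound by proteins of the IRF family. The letters GAAA, any 2 bases and GAAA again were searched on both strands in the 250 bases before each RefSeq start (GRCm38.p6), overlapping matches allowed. They were found in 12 of 23 lower genes of the list that had a window (52.2%), in 3.44% of 6738 measured genes with a window, in 10.2% of 225 genes at least 4-fold lower and in 3.73% of 161 genes at least 4-fold higher. Of 8 genes of the list that were not 2-fold lower and had a window, 2 held the letters (25.0%), Ifitm2 and Ddx60. The mean share of A or T was 49.2% in the lower genes of the list, 52.2% in the others, 40.1% over all measured genes and 42.5% in the genes at least 4-fold lower. Over all 32851 RefSeq windows, counted by window and not by gene and with 46.8% of A or T, the letters were in 2.98%. The part of base composition was not tested. A match is a description of the letters and not of binding. To show windows with and without the letters, those of the lower genes Ifit3 and Gbp2, which hold them, of Oasl2, the lowest gene of the list, and of Slfn4, the single higher one, are printed 5′ to 3′ in the direction of the gene, with matches on either strand in capitals.
Ifit3, chr19:34583279-34583528, plus strand: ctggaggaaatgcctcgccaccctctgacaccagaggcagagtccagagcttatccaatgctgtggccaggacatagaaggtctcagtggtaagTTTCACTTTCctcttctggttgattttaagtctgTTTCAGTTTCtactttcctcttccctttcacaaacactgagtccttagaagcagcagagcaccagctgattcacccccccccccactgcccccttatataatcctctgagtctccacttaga
Gbp2, chr3:142620413-142620662, plus strand: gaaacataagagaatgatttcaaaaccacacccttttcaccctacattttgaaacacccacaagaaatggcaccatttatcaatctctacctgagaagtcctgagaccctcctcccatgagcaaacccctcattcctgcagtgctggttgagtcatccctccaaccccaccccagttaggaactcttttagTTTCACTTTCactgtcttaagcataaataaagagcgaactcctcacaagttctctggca
Oasl2, chr5:114896684-114896933, plus strand: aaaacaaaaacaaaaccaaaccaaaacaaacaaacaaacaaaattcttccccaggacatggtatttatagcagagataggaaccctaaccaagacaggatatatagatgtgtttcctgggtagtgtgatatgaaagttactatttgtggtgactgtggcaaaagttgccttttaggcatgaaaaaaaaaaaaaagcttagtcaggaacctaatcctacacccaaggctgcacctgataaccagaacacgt
Slfn4, chr11:83174936-83175185, plus strand: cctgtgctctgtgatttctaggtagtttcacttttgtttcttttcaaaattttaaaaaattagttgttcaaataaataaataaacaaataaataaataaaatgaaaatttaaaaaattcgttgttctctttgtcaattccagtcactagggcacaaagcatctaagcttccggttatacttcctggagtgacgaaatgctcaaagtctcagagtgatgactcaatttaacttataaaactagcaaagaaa
Ifit3 (5.91 against 9.28) held 2 matches and Gbp2 (5.59 against 8.14) held 1. The windows of Oasl2 and Slfn4 held none, which says only that these letters are not in them.

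Secreted factors lay on both sides, with 10 of 42 higher and 11 lower. Ccl9, a chemokine of the CCR1 receptor, read 7.64 in GFP-high, 12.77 in GFP-low, 12.78 in Gfi1-deficient cells and 8.94 in granulocytes, 34.9-fold lower in GFP-high cells. Ccl3 was 18.7-fold lower at 6.22 against 10.45. Lrg1, a leucine-rich plasma glycoprotein, read 12.25 in GFP-high, 8.01 in GFP-low, 11.09 in Gfi1-deficient cells and 12.96 in granulocytes, 18.9-fold higher. Cst7, an inhibitor of cathepsins, was 17.5-fold higher at 10.07 against 5.94, and Serpinb1a, an inhibitor of neutrophil proteases, 10.5-fold at 13.13 against 9.73. Both protease inhibitors were higher in GFP-high cells than on any other array. On the mean of the probe sets, the log2 difference was 4.04 for Serpinb1a.

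**Figure D5:**
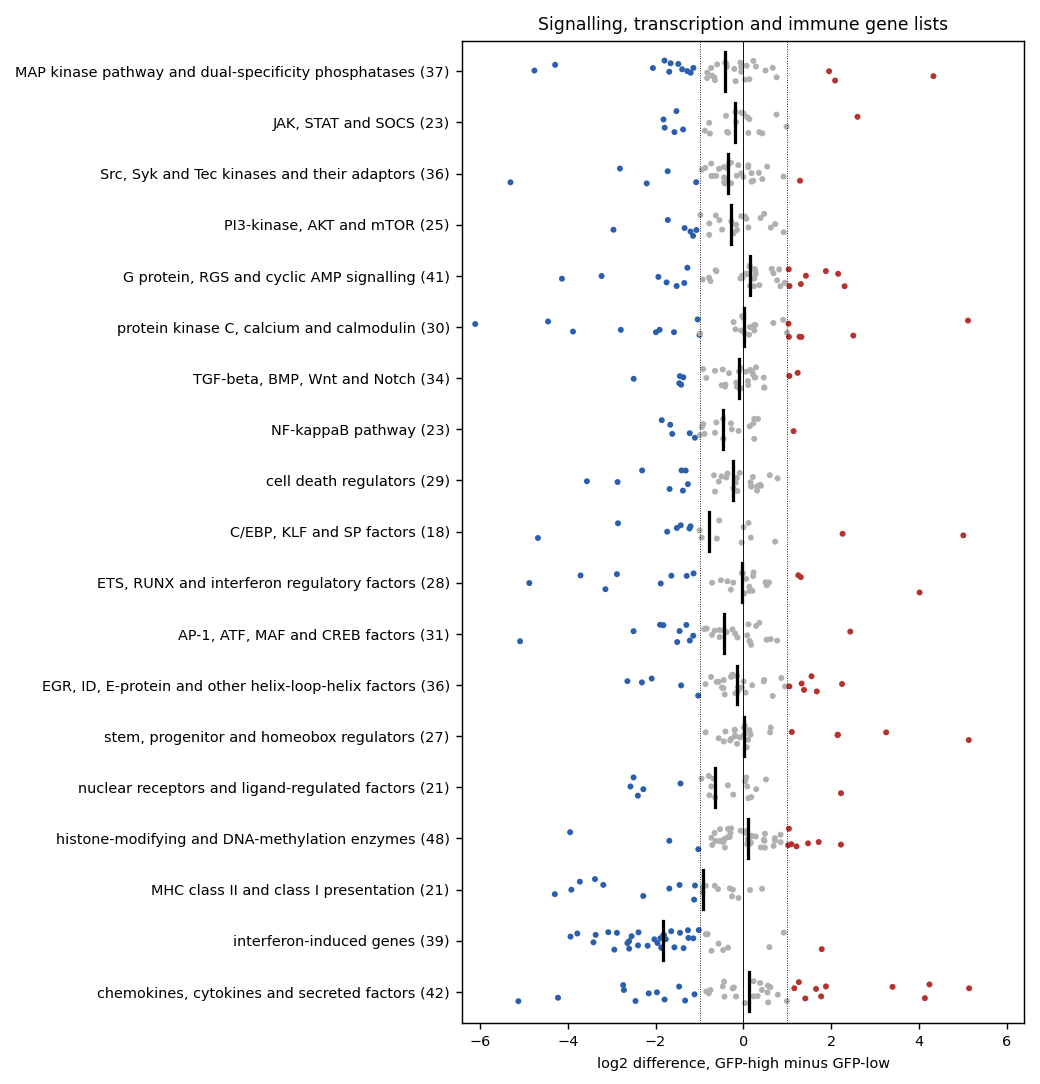
Log2 difference between GFP-high and GFP-low cells (x axis) for each measured gene (point) of the signalling, transcription and immune lists (1 signalling list not shown), with the number of genes in brackets, the list median as a black bar, and dotted lines at 2-fold. Interferon-induced genes have their median at -1.82 with 30 of 39 genes left of the dotted line, and KLF factors span from Klf4 to Klf5.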

How the data were processed

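The authors deposited 1 log2 expression value per probe set and array, on a microarray with 22690 probe sets. Per the labels, RNA was extracted with TRIzol and 6 µg were labelled as biotinylated cRNA. The log2 scale is inferred from the range of the deposited values (2.70 to 14.50), and the software and the normalization behind them are not stated in the labels. Array medians lay between 5.91 and 6.01, and the values were used as deposited. The difference between 3′ and 5′ probe sets of Actb was 0.16 on both arrays compared, and that of Gapdh was -0.06 on both.

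Probe sets were named through the platform annotation and matched by gene ID to RefSeq (GRCm38.p6): 20393 had 1 gene, 691 had several, 1606 had none, and 20364 were matched. Of the 12393 genes, 7437 had 1 probe set and 4956 several. The floor is the 40th percentile of all values. Lists were described by their counts and medians beside those of all genes, with no test, since each population had 1 array. Array number limits the precision. The populations, lists and tests were chosen with earlier results of these data known. Named genes were the markers, the 15 highest and 15 lowest differences outside the granule, monocyte and cell cycle lists, up to 4 members on each side of each list with probe sets of the same sign, up to 2 members of each list that were above 10 on both arrays and least apart, and up to 4 markers of each other cell type. The 12 genes Anxa4, Tlr4, Tlr7, Tlr8, Msr1, Cebpb, Myc, Dnmt1, Gbp2, Gbp3, Ddx60 and Zbp1 lie outside that rule and were chosen after their values were seen. Promoter windows came from RefSeq, and Usp18 and Mx1 were not in that table. The computation used Python 3.11.15, NumPy 2.4.6, pandas 2.3.3 and matplotlib 3.10.9 and was tested on simulated data. Alternatives were the floor at the 20th and 60th percentiles, quantile normalization, median centring, other choices of probe set, and leaving out genes at the floor. The members of 1 signalling list are counted in the totals and not reported here.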

Additional observations from a re-analysis of the deposited data

How the results depend on the processing

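With 1 array in each population the differences include animal, sort and array variation that cannot be told apart from GFP level, and the floor compresses low genes. No paired analysis was possible because each population had 1 array and the labels give no replicate numbers. Genes at least 2-fold higher numbered 579 to 794 over the alternatives and genes at least 2-fold lower 597 to 841, and the higher share of the calls ranged from 48.3% to 50.8%. Genes at least 4-fold lower fell from 282 to 177 with the floor at the 60th percentile, which tests 6050 genes in place of 8232. Of 343 named genes at least 2-fold apart, 19 came under 2-fold in 1 or more of the alternatives run for single genes (the 20th percentile floor, both normalizations and the mean over probe sets), and none of the 343 changed sign. The mean over probe sets moved 34 of 453 named genes by over 1.5-fold, and the text gives that mean beside each such gene it describes by a fold. Over all alternatives, list medians moved by more than the probe-set SD in 26 of 518 values and list counts by over 1.5 times in 70 of 1036. The median of all genes ran from 0.02 to 0.07.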

Other observations

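The promoter windows of the same genes were also searched on both strands for AAATCA, the core of the DNA site of Gfi1. A gene counted when any of its windows held the letters. They were in 17.8% of 225 genes at least 4-fold lower in GFP-high cells, 8.70% of 161 genes at least 4-fold higher and 9.04% of 6738 measured genes, all with a window. The mean share of A or T in those windows was 42.5%, 39.9% and 40.1%. Over all 32851 RefSeq windows, counted by window and not by gene, the A or T share was 46.8% and the letters were in 12.4%. The part of base composition was not tested.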
